A study of Homo sapiens and Mus musculus with 92 samples.

Results

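The 8 genes described here are the galectins LGALS1, LGALS2, LGALS3, LGALS4, LGALS8, LGALS9 and LGALS12 and the gene of the galectin-binding glycoprotein LGALS3BP, out of 28103 gene symbols in each of 2 tables of RNA-seq counts. The members were picked by symbol, and the set was chosen because LGALS3BP was among the largest rises after knockdown (KD) of AF9. Its AF9 values therefore chose the set, and all values of the AF9 comparison are given as a description, with standard errors and with no p value. The MLL1 comparison had no part in the choice and was tested.

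RNA-seq was done on HEL, an established human erythroleukemic cell line without a rearrangement of MLL1, which the labels call a human erythroblast. In the first experiment, MLL1 (gene KMT2A), a histone H3 lysine 4 methyltransferase, was knocked down with MLL1 shRNA #1 in 3 replicates beside 3 control replicates. In the second, AF9 (gene MLLT3), a YEATS domain protein of the super elongation and DOT1L complexes, was knocked down with AF9 shRNA #1 in 2 replicates beside 2 controls of its own. KD cells are labelled MLL1 knockdown or AF9 knockdown and controls WT, and all received a lentiviral pLKO.1 vector, with the TRC control shRNA (SHC016) in the control cells, followed by puromycin selection of a transduced population that was not cloned. Each target was thus tested here with a single shRNA, and an effect of the shRNA apart from its target cannot be told apart from an effect of the target. Nothing in the labels says that replicates came from separate cultures, so p values measure the spread between these libraries, which may be technical.

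Galectins are small lectins without a signal peptide that bind beta-galactosides, above all the N-acetyllactosamine units on N- and O-glycans of glycoproteins. They occur in the cytosol and nucleus and, after unconventional secretion, outside the cell, where they cross-link glycoproteins. LGALS1 and LGALS2 are prototype galectins that act as dimers of a single carbohydrate-recognition domain, LGALS3 is the chimera type with a long N-terminal tail, and LGALS4, LGALS8, LGALS9 and LGALS12 are tandem-repeat galectins with a pair of domains in one chain. LGALS3BP, also called Mac-2-binding protein or 90K, is not a galectin. It is a secreted, heavily glycosylated protein with a scavenger receptor cysteine-rich domain that binds galectins through its glycans and is known as an interferon-inducible gene.

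LGALS3BP (ENSG00000108679) lies on the minus strand of chromosome 17, from 78971238 to 78979947 in hg38, and its canonical transcript has 6 exons. Because it carries the largest difference among the members, the 250 bases upstream of its RefSeq start (GRCh38.p14, chr17:78979924-78980173, minus strand) are shown 5′ to 3′, with capitals marking a match to GAAANNGAAA, the core letters of an interferon-stimulated response element.
LGALS3BP upstream: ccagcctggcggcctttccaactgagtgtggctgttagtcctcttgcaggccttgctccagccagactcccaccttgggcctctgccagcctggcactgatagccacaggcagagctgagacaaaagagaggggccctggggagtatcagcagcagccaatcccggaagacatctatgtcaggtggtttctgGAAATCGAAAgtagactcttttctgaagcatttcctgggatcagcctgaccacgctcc
The match begins 58 bases before the start. Searched on both strands, 3.02% of the 35116 RefSeq promoter windows of that length hold such a match, and none of the windows of LGALS2, LGALS3, LGALS4, LGALS8 (3 starts) or LGALS9 does. The LGALS3BP window holds 4 CG dinucleotides, against a median of 11 over all windows, and no match to GGGCGG (a GC box, in 42.6% of windows), TATAAA (in 10.7%), or the GATA letters AGATAA (in 9.17%) and TGATAA (in 6.66%). The windows of the galectins differed among themselves: that of LGALS3 holds 32 CG dinucleotides and 3 GC boxes and that of LGALS9 holds 1 CG dinucleotide and none of the motifs, while the windows of LGALS8 hold 2, 14 and 21 CG dinucleotides, with TATAAA at the first start and a GC box at the third. One TGATAA match lies upstream of LGALS4. These matches describe letters and not binding.

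A second sequence feature bears on LGALS9 (ENSG00000168961; chromosome 17, 27629798 to 27649560, plus strand). Its copies are LGALS9B (chromosome 17, 20449395 to 20467539, minus strand) and LGALS9C (chromosome 17, 18476737 to 18494945, plus strand). They are alike enough that some short reads, but not all, can be placed on another copy. The first 120 coding bases of the 3 canonical transcripts (GENCODE, hg38) are shown, with capitals at the 9 positions where they are not all the same. In this window LGALS9B differs from LGALS9 at 7 positions and LGALS9C at 9, so it also holds letters that tell the copies apart.
LGALS9 coding: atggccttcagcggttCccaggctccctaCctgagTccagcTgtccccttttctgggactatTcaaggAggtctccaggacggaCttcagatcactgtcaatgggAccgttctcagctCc
LGALS9B coding: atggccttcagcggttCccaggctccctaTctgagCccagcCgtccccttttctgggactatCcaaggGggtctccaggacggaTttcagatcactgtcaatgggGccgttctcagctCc
LGALS9C coding: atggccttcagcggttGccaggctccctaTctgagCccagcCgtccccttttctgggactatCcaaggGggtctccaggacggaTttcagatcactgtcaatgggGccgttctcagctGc
Over the whole coding sequence LGALS9B was 96.3% and LGALS9C 95.9% identical to LGALS9, leaving out a gap of 3 bases. Of the 31-base stretches of the LGALS9 transcript, 49.3% also occur in transcripts of another gene, while no such stretch was found for the other 7 members. Counts of LGALS9 are therefore uncertain.

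Library totals were 6966345 to 10380241 counts in the MLL1 experiment and 12278989 to 14232408 in the AF9 experiment, and 16415 to 17325 genes were detected per library. The targeted genes followed their labels: MLLT3 was 537 ± 14.6 CPM (counts scaled to library size; SD, n = 2) in control and 99.9 ± 10.5 CPM in AF9 KD cells, and KMT2A was 1291 ± 33.8 CPM (SD, n = 3) in control and 820 ± 10.3 CPM in MLL1 KD cells, without overlap in either case. KMT2A itself did not pass the test without a block (log2 fold change -0.66, adjusted p = 0.0723 by edgeR's quasi-likelihood test) and passed with it (adjusted p = 2.5e-07). A gene was tested where its mean TPM (a share of all transcripts that corrects for gene length and library size) was at least 1, and called where its fold change was at least 1.5 and its Benjamini-Hochberg adjusted p value from edgeR's quasi-likelihood test was under 0.05. By this rule 10 of 14409 genes tested (0.0694%) were called in the MLL1 experiment, or 0 to 53 with a library left out: 53 without KD replicate 1 and 0 without any of the others, where unadjusted p values under 0.05 were still seen for 905 to 1384 genes. Control and KD libraries with the same number deviated together in that experiment, as did libraries 2 and 3 across numbers. With the replicate number as a block 682 genes (4.73%) were called. In the AF9 experiment 1744 of 13351 genes (13.1%) were called, 1069 higher and 675 lower, and 1053 without control replicate 1. With total counts in place of TMM factors that split was 1415 higher and 438 lower, and the median of all genes moved to a log2 fold change of 0.099.

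In control cells, levels set per length of the merged exons put LGALS1 first. Its TPM was 83.1 to 104 in the 3 control libraries of the MLL1 experiment, above LGALS8 at 51.0 to 56.4 and LGALS9 at 40.9 to 58.3, which overlapped each other. LGALS3BP followed at 22.4 to 37.3 TPM and LGALS12 at 4.45 to 11.5 TPM, each apart from its neighbours. LGALS4 (1.61 to 2.34 TPM) and LGALS3 (0.466 to 1.76 TPM) were near the limit of the test and overlapped, and LGALS2 had no count. With the length of the canonical transcript in place of that of all merged exons, LGALS9 lay above LGALS8 in the MLL1 experiment (means of 101.5 and 52.4 TPM) and overlapped LGALS1 (85.8 to 116 and 100 to 133 TPM), so the order of these genes depends on the length used. The same genes led in the AF9 experiment, with LGALS1 at 107 to 142 TPM, LGALS8 at 58.3 to 65.2 TPM and LGALS9 at 28.4 to 30.9 TPM, none overlapping, although LGALS8 and LGALS9 had means of 51.7 and 51.8 TPM with canonical lengths. The rest of the set was low there: LGALS3 at 1.13 to 2.41 TPM, LGALS4 at 0.417 to 1.11 TPM, LGALS3BP at 0.453 to 0.723 TPM and LGALS12 at 0.135 to 0.461 TPM, with LGALS3BP overlapping the genes on both sides of it in this order.

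**Figure D1:**
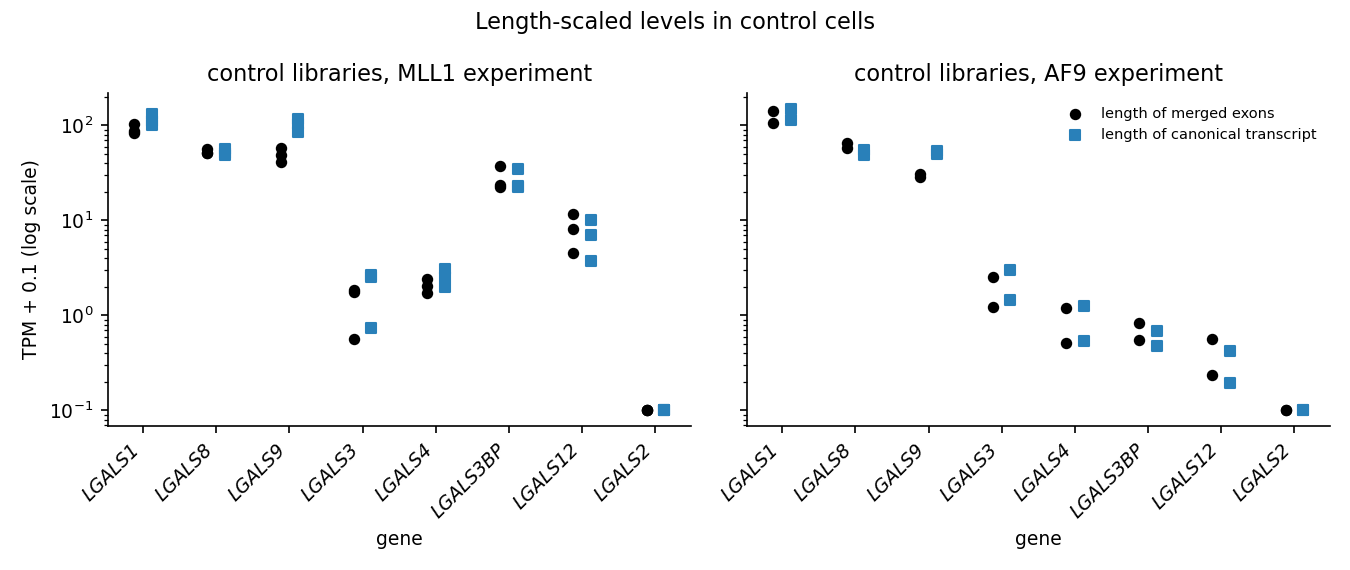
Level of each gene in TPM plus 0.1 (log scale) in the control libraries of the MLL1 experiment (n = 3, left) and of the AF9 experiment (n = 2, right), 1 point per library, with gene length from merged exons (black circles) or from the canonical transcript (blue squares). LGALS1 is highest by merged exons and overlaps LGALS9 by canonical length on the left (100 to 133 TPM and 85.8 to 116 TPM), LGALS3BP lies at 22.4 to 37.3 TPM on the left and 0.453 to 0.723 TPM on the right by merged exons, and LGALS2 is at 0 throughout.

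LGALS3BP, the galectin ligand, was low in control cells of the AF9 experiment and higher in each AF9 KD library. Controls 1 and 2 had 5 and 7 counts, or 0.363 and 0.587 CPM, and AF9 KD replicates 1 and 2 had 50 and 62 counts, or 3.87 and 4.63 CPM. The groups did not overlap, and the means were 0.475 ± 0.159 and 4.25 ± 0.544 CPM (SD, n = 2). The fitted log2 fold change was 3.16 (SE 0.39), or 8.93-fold, and with a library left out it ranged from 2.84 to 3.52. The ratio of the summed counts, 112 against 12, had a 95% interval of 5.01 to 18.2 from counting error alone (Clopper-Pearson). That interval leaves out the spread between libraries and, as these counts chose the set, is no test of the rise. By fitted change LGALS3BP was number 5 of the 1069 genes called higher. This is what the set was chosen on.

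In the MLL1 experiment LGALS3BP was counted far more often and did not pass the test. The 3 controls had 249, 147 and 165 counts (32.1, 20.4 and 21.0 CPM) and the MLL1 KD libraries 336, 181 and 272 (33.4, 25.6 and 29.3 CPM). Replicate 1 was the highest library of both groups, and control replicate 1 lay among the KD libraries, so the groups overlapped. The means were 24.5 ± 6.60 CPM in control and 29.4 ± 3.89 CPM in MLL1 KD cells (SD, n = 3), with a log2 fold change of 0.27 (SE 0.22; adjusted p = 0.779 by edgeR's quasi-likelihood test). With the replicate block it was 0.28 (adjusted p = 0.21). With replicates 2 and 3 alone, a choice made after seeing the data, it was 0.41, with an adjusted p of 0.0422 by the same test but under 1.5-fold.

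The level of LGALS3BP in control cells was far apart in the tables of the experiments. Mean CPM was 51.6 times as high in the MLL1-experiment controls as in the AF9-experiment controls, and AF9 KD cells, at 4.25 CPM, stayed below the lowest library of the MLL1 experiment at 20.4 CPM. LGALS12 differed the same way, by 29.8 times, from 4.83 to 0.162 CPM, whereas LGALS1 (25.4 and 31.3 CPM), LGALS8 (131 and 138 CPM) and LGALS3 (0.749 and 0.919 CPM) had like control means in both. Other genes of the HEL line were also apart: HBG1, a fetal globin gene, had 62.1 CPM in the MLL1-experiment controls and 3114 CPM in the AF9-experiment controls, and CPA3, a mast cell protease, 10.6 and 242 CPM. The tables were counted and normalized separately, and culture, library preparation and counting cannot be told apart as sources of such differences, which were not tested.

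**Figure D2:**
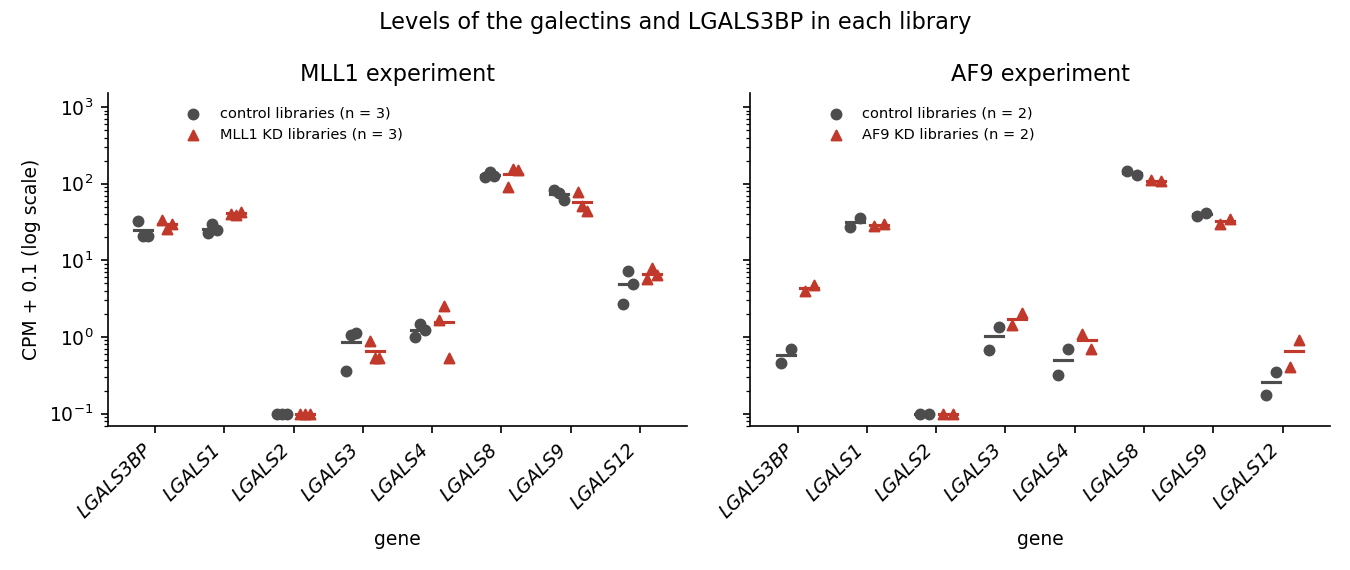
CPM plus 0.1 (log scale) of the 8 genes in every library of the MLL1 experiment (left) and the AF9 experiment (right), with circles for control libraries, triangles for KD libraries and a bar at each group's mean. LGALS3BP lies at 0.363 and 0.587 CPM in the AF9-experiment controls, at 3.87 and 4.63 CPM in AF9 KD cells and above 20 CPM in the whole MLL1 experiment, while the 3 LGALS1 libraries of MLL1 KD cells lie above their controls.

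LGALS1 (ENSG00000100097; chromosome 22, 37675636 to 37679802, plus strand, 4 exons), the prototype galectin-1, was the member with the clearest difference after MLL1 KD. Controls had 173, 212 and 192 counts (22.3, 29.4 and 24.4 CPM) and MLL1 KD libraries 408, 276 and 400 (40.6, 39.1 and 43.1 CPM). All KD libraries lay above all controls, a pattern that 17.7% of the genes tested showed in one direction or the other. Means were 25.4 ± 3.66 and 40.9 ± 2.05 CPM (SD, n = 3), and the log2 fold change was 0.69 (SE 0.16). It did not pass edgeR's quasi-likelihood test without a block (adjusted p = 0.194, unadjusted p = 0.00269) but was called with the replicate block, at a log2 fold change of 0.70 (SE 0.13, adjusted p = 0.00146), where 4.73% of all genes were called, and by DESeq2 (0.70, adjusted p = 0.0173), where 1.61% were. It was also called with replicates 2 and 3 alone (log2 fold change 0.61, adjusted p = 2.3e-04, edgeR), beside 4.82% of all genes. With 1 library left out and no block, its log2 fold change stayed between 0.61 and 0.81, and the exact two-sided permutation test gave p = 0.1, the smallest that 3 against 3 libraries allow.

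After AF9 KD no such difference was seen in LGALS1. Controls had 26.7 and 35.9 CPM and AF9 KD libraries 28.3 and 29.6 CPM, so the KD libraries lay between the controls. The log2 fold change was -0.11 (SE 0.15) and ranged from -0.31 to 0.12 with a library left out, the positive value coming without control replicate 2. Whether the changes of LGALS1 in the experiments differ was not tested, since they come from separately normalized tables.

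LGALS2 (ENSG00000100079; chromosome 22, 37570248 to 37582616, minus strand), the other prototype member and a near neighbour of LGALS1, had 0 counts in all 10 libraries. At these depths a count of 0 allows up to 0.218 to 0.425 CPM per library (3 counts), for counting error only.

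LGALS3 (ENSG00000131981; chromosome 14, 55124110 to 55145423, plus strand), the chimera galectin that LGALS3BP is named for, was barely counted. It had 2, 7 and 8 counts in controls and 8, 3 and 4 in MLL1 KD cells, which overlapped (log2 fold change -0.41, SE 0.68, adjusted p = 0.918 by edgeR's quasi-likelihood test). In the AF9 experiment it had 8 and 15 counts in controls and 17 and 26 in KD cells, or 0.919 ± 0.479 and 1.63 ± 0.445 CPM (SD, n = 2). Both KD libraries were above both controls, by a log2 fold change of 0.85 (SE 0.45) that ranged from 0.37 to 1.48 with a library left out. Set per length, in TPM, LGALS3BP lay above LGALS3 in all libraries of the MLL1 experiment and below it in both AF9-experiment controls.

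Among the tandem-repeat galectins, LGALS8 (ENSG00000116977; chromosome 1, 236518000 to 236552981, plus strand), which binds sialylated glycans and marks damaged vesicles, was the most counted member. Its CPM in the AF9 experiment was 145 and 131 in controls and 110 and 107 in KD cells, so both KD libraries were lower. The log2 fold change was -0.34 (SE 0.10), under 1.5-fold in size, and with offsets for GC content it was -0.15. In the MLL1 experiment LGALS8 showed no direction: controls had 123, 142 and 127 CPM, and KD libraries had 91.3, 154 and 151 CPM, with KD replicate 1 lowest and the others highest of the 6. The log2 fold change was 0.02 (SE 0.21, adjusted p = 0.988 by edgeR's quasi-likelihood test) and -0.01 with the replicate block.

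LGALS9, galectin-9, a ligand of the immune receptor TIM-3, was lower on average in KD cells of both experiments, within the call threshold in each. In the MLL1 experiment it had 83.8, 74.4 and 61.4 CPM in controls and 77.6, 51.1 and 43.7 CPM in KD cells. The groups overlapped through KD replicate 1. Within each replicate number the KD library was the lower one, although the data do not show that numbers 2 and 3 pair libraries. The log2 fold change was -0.35 (SE 0.23, adjusted p = 0.71 by edgeR's quasi-likelihood test). With the replicate block it was -0.37, with an adjusted p of 0.0248 by the same test but under 1.5-fold. With replicates 2 and 3 alone it was -0.52, with an adjusted p of 6.1e-05 by the same test, also under 1.5-fold. In the AF9 experiment CPM was 38.0 and 41.9 in controls and 30.1 and 34.9 in KD cells, without overlap, at a log2 fold change of -0.30 (SE 0.12).

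The copies of LGALS9 were counted in one table only. In the AF9 table LGALS9B had 18 and 14 counts in controls and 14 and 13 in KD cells, and LGALS9C had 29 and 25 and then 14 and 22. In the MLL1 table both had exactly 0 in all 6 libraries, although LGALS9 had 361 to 781 counts there. The same held for 58 symbols in all, with at least 10 counts in every AF9 library and 0 in every MLL1 library, and 21 symbols showed the reverse. How reads that map to several places were counted is not given in the sources used here, so levels of LGALS9 are best compared within a table. Summing the 3 copies left the AF9 log2 fold change of LGALS9 at -0.31.

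LGALS12 (ENSG00000133317; chromosome 11, 63506052 to 63516774, plus strand), known from adipocytes and myeloid cells, was counted mainly in the MLL1 experiment. Controls had 20, 51 and 38 counts (2.58, 7.08 and 4.83 CPM) and MLL1 KD libraries 57, 55 and 58 (5.67, 7.78 and 6.25 CPM), which overlapped. The log2 fold change was 0.44 (SE 0.37, adjusted p = 0.785 by edgeR's quasi-likelihood test). It was below the filter in the AF9 experiment, with 1 and 3 counts in controls and 4 and 11 in KD cells, a ratio of 3.66 with a 95% counting interval of 1.17 to 15.2. LGALS4 (ENSG00000171747; chromosome 19, 38801671 to 38812945, minus strand), best known from the gut epithelium, had 7, 10 and 9 counts in controls and 16, 17 and 4 in MLL1 KD cells (log2 fold change 0.34, SE 0.63, adjusted p = 0.929 by edgeR). It had 3 and 7 counts in controls and 13 and 8 in AF9 KD cells, for a log2 fold change of 1.02 (SE 0.62) at a level of at most 1.01 CPM. With a library left out it ran from 0.44, without control replicate 1, to 1.83, without control replicate 2.

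Counted over the set, 7 of 8 members were tested after MLL1 KD, LGALS2 being at 0, and none was called by edgeR's quasi-likelihood test, beside 0.0694% of all genes. Of the 7, only LGALS1 had an unadjusted p value under 0.05, beside 9.97% of all genes, and with the replicate block LGALS1 alone was called, beside 4.73% of all genes. DESeq2 also called 1 member, beside 1.61% of all genes. After AF9 KD, 6 of 8 members were tested and 1, LGALS3BP, met the call rule, beside 13.1% of all genes. LGALS3BP passed the TPM filter only through the KD group, with a mean of 0.588 TPM in controls and 5.68 TPM in KD cells. The same held for LGALS4, at 0.764 TPM in controls and 1.64 TPM in KD cells. The median log2 fold change of the tested members was 0.27 after MLL1 KD and 0.37 after AF9 KD, beside 0.01 over all genes in each. A member had to be at 1 TPM to be in these medians, so LGALS3BP and LGALS4 are in the AF9 median through their KD values. KD and control libraries did not overlap in LGALS3BP, LGALS3, LGALS4 and LGALS12 (higher in AF9 KD cells) nor in LGALS8 and LGALS9 (lower), a pattern seen in 66% of genes in that small comparison. As the AF9 values chose the set, nothing is read from these AF9 counts.

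**Figure D3:**
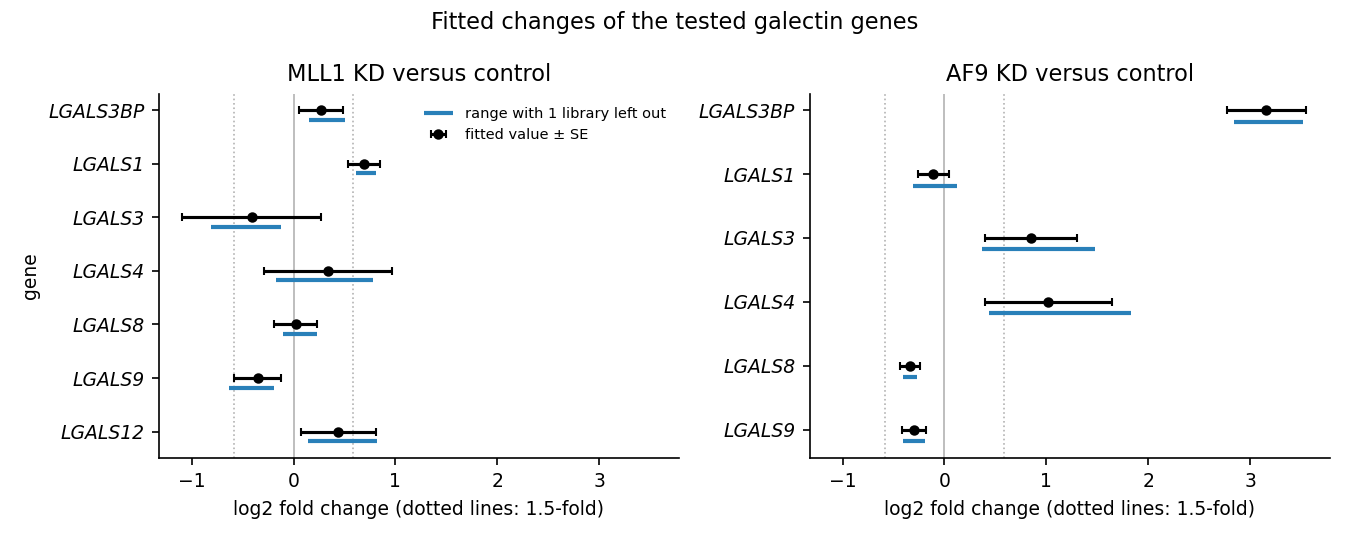
Fitted log2 fold change of each tested member (black point, bar for ± SE) after MLL1 KD (left) and AF9 KD (right), with the range over fits that each left out 1 library (blue line). Dotted lines mark 1.5-fold. LGALS3BP stands at 3.16 after AF9 KD and 0.27 after MLL1 KD, and LGALS1 at -0.11 and 0.69.

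GC content of exons moved with the AF9 comparison and is given beside each member for that reason. The median log2 fold change of the 1226 tested genes whose GC content lay within 2 percentage points of that of LGALS3BP (61.0%) was 0.42 after AF9 KD and that of the genes around LGALS8 (42.2%) was -0.14. After MLL1 KD the same medians were -0.02 and 0.02. With offsets that remove each library's trend with GC content, the AF9 log2 fold change of LGALS3BP was 2.75 in place of 3.16, and those of LGALS3 and LGALS4 were 0.94 and 0.86. LGALS1, also GC-rich at 60.7%, moved from -0.11 to -0.49, while LGALS9 moved from -0.30 to -0.43. The MLL1 value of LGALS1 was 0.72 with these offsets. The part of GC content in the AF9 values beyond these numbers was not tested.

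**Figure D4:**
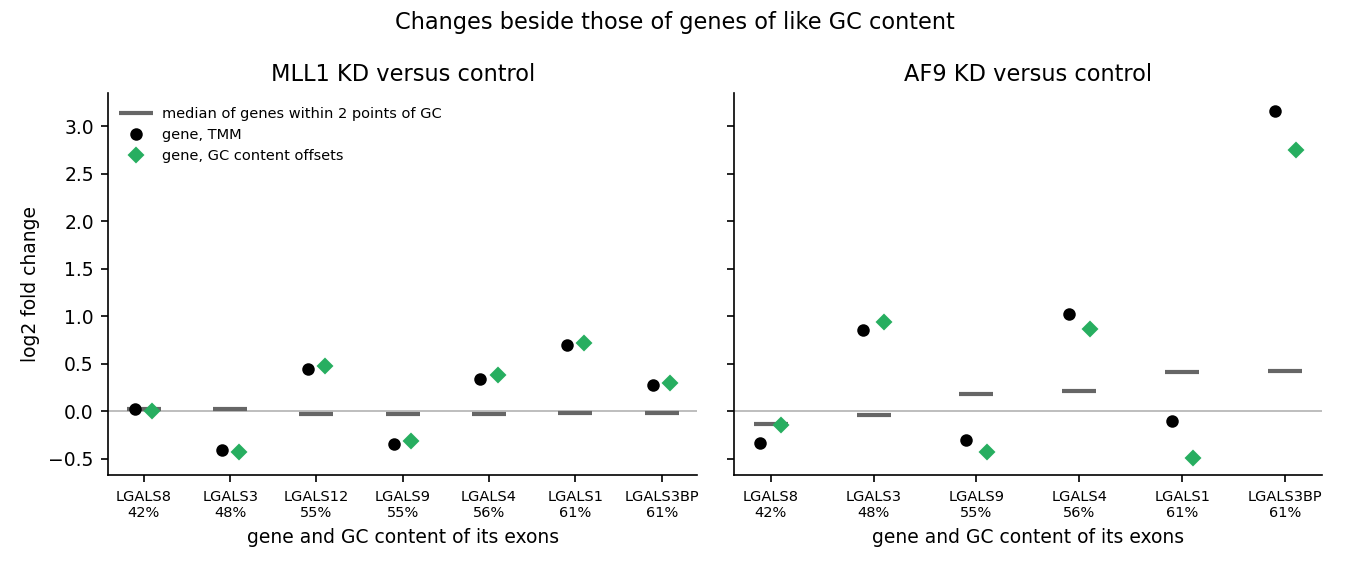
Log2 fold change of each tested member with TMM factors (black circles) and with offsets for GC content (green diamonds), and median of the tested genes within 2 percentage points of its GC content (grey bars), after MLL1 KD (left) and AF9 KD (right), with genes in order of the GC content of their exons. The grey bars run from -0.14 at LGALS8 to 0.42 at LGALS3BP on the right and stay between -0.03 and 0.02 on the left.

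The chromosomal neighbours of LGALS3BP were silent or little different between groups. CANT1, a calcium-activated nucleotidase gene that lies 11769 bases away, had 63.4 CPM in controls and 66.7 CPM in AF9 KD cells (log2 fold change 0.07, SE 0.10), and 69.6 and 79.6 CPM in the MLL1 experiment (0.19, SE 0.20, adjusted p = 0.834 by edgeR). On the other side TIMP2, 45851 bases away, and CEP295NL had at most 2 counts in any library, as did C1QTNF1 beyond CANT1. The 5 genes whose log2 CPM, centred on each table's controls, went most closely with that of LGALS3BP over the 10 libraries were CTBP1 (Pearson's r = 0.99), CBX6 (0.988), QTRT1 (0.987), PPP1R12C (0.984) and TCF25 (0.982), among 12751 genes tested in both tables. Their log2 fold changes were 0.54 to 1.32 after AF9 KD and 0.05 to 0.08 after MLL1 KD. Libraries of a group share depth and treatment, so these values describe a pattern set mainly by the AF9 KD libraries.

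Of 10 further genes of the galectin family, among them CLC (galectin-10 of eosinophils) and the placental LGALS13, LGALS14 and LGALS16, most were silent: 8 had 0 counts in every library of the MLL1 experiment and 6 in every library of the AF9 experiment. LGALSL, a galectin-related gene without known lectin activity, was the only one tested after MLL1 KD. It had 17, 15 and 13 counts in controls and 23, 27 and 26 in KD cells (log2 fold change 0.58, SE 0.36, adjusted p = 0.679 by edgeR), and its AF9 value was 0.26 (SE 0.30).

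Enzymes that build or cap the N-acetyllactosamine ligands of galectins were counted from a list of 24 genes, of which 21 were tested in each experiment. After MLL1 KD none was called, with or without the replicate block, beside 4.73% and 0.0694% of all genes. The median log2 fold change was 0.01. After AF9 KD 5 were called lower and 1 higher, which is 6 of 21 beside 13.1% of all genes, at a median of -0.22 beside 0.01. The core 2 branching enzyme GCNT1 fell from 39.6 to 19.1 CPM (log2 fold change -1.06, SE 0.13), and B3GNT2, which extends polylactosamine chains, fell from 136 to 77.2 CPM (-0.82, SE 0.09). C1GALT1, the core 1 synthase, was lower by -0.70 (SE 0.10), as was the sialyltransferase ST3GAL1 by -0.70 (SE 0.10), and the I-branching enzyme GCNT2 by -0.67 (SE 0.20). B4GALT2, a galactosyltransferase that completes lactosamine, was higher, at 63.4 and 101 CPM (0.67, SE 0.12).

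Of 23 glycoproteins that bind galectins or LGALS3BP, 18 were tested after AF9 KD, and 3 were called, near the background of 13.1%. The lysosomal LAMP1 was higher, from 52.8 to 79.8 CPM (log2 fold change 0.60, SE 0.12), as was basigin, BSG, from 78.7 to 140 CPM (0.83, SE 0.12), and the hyaluronan receptor CD44 was lower, from 95.3 to 60.4 CPM (-0.66, SE 0.10). After MLL1 KD none of the 19 tested was called without a block, beside 0.0694% of all genes. With it CD44 and CD2 were called higher, beside 4.73% of all genes. CD44 had 137, 89.0 and 80.1 CPM in controls and 236, 148 and 161 CPM in KD cells (log2 fold change 0.83, adjusted p = 0.303 by edgeR without and 2.4e-06 with the block). CD2, a T cell adhesion glycoprotein, had a log2 fold change of 1.49 (adjusted p = 0.0837 without and 6.6e-05 with the block, edgeR). CD44 thus stood on opposite sides of its controls in the experiments, and the difference between the experiments was not tested.

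Of 12 genes of the autophagy of damaged lysosomes, a process in which LGALS3, LGALS8 and LGALS9 mark ruptured membranes, 11 were tested after AF9 KD and 2 were called, beside 13.1% of all genes. MCOLN1, a lysosomal calcium channel, was called higher, from 3.41 to 7.03 CPM (log2 fold change 1.04, SE 0.23), and TAX1BP1, an autophagy receptor, lower, from 153 to 96.4 CPM (-0.67, SE 0.10). None of the 12 tested was called after MLL1 KD, with or without the block, beside 4.73% and 0.0694% of all genes. Of 18 interferon-stimulated genes, 13 were tested after AF9 KD. The median of the 13 was -0.12, and the summed level of the list was 508 to 517 CPM in controls and 383 to 449 CPM in AF9 KD cells, lower in both KD libraries while LGALS3BP was higher. ISG15 (0.70, SE 0.30) and IRF7 (0.93, SE 0.41) were higher in both AF9 KD libraries and were not called. After MLL1 KD no gene of this list was called without a block, and the summed levels overlapped, at 592 to 670 CPM in controls and 571 to 637 CPM in KD cells. With the block OAS1, an antiviral synthetase, was called, beside 4.73% of all genes, at a log2 fold change of 1.66 (adjusted p = 0.126 without and 0.00173 with the block, edgeR).

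Since LGALS3BP and several galectins are also made by macrophages and granulocytes, markers of other blood cells were read beside them. Over all genes, 13.1% were called after AF9 KD, and 0.0694% after MLL1 KD without and 4.73% with the block. Of the monocyte and macrophage markers 3 were tested in each experiment, and of the eosinophil, basophil and mast cell markers 4. Of 8 monocyte and macrophage markers, CD14 and CD163 had 0 counts in every library of the AF9 experiment and FCGR3A and MRC1 at most 3, while the summed level was 132 to 138 CPM in controls and 98.7 to 118 CPM in AF9 KD cells. ITGAM, an integrin of myeloid cells, was called higher, from 1.08 to 2.88 CPM (log2 fold change 1.40, SE 0.36). ITGAM passed the TPM filter only through the KD group, with a mean of 0.808 TPM in controls and 2.32 TPM in KD cells. The other markers of this list tested after AF9 KD, CD68 (-0.24) and LYZ (-0.39), had negative values and were not called. In the MLL1 experiment the monocyte and macrophage list summed to 37.3 to 58.0 CPM in controls and 21.0 to 41.5 CPM in KD cells, which overlapped, and CD68, a lysosomal glycoprotein, was called lower with the block alone (log2 fold change -0.94). Of the 7 eosinophil, basophil and mast cell markers, CLC and EPX were at 0, and the summed level was 848 to 958 CPM in controls and 214 to 351 CPM in AF9 KD cells, with PRG2 (log2 fold change -1.59), CPA3 (-2.01) and MS4A2 (-1.02) called lower. In the MLL1 experiment the same list summed to 244 to 309 CPM in controls and 71.9 to 90.4 CPM in KD cells. PRG2 (-1.99) and TPSAB1 (-1.51) were called lower there (adjusted p = 0.0347 and 0.0401, edgeR). The other markers tested, CPA3 (-0.22) and MS4A2 (0.18), were not called. The sum was mostly PRG2, at 224 CPM in controls and 56.3 CPM in MLL1 KD cells. Of 8 erythroid markers all were tested in both experiments, 2 (HBG1 and HBG2, each -0.60) were called lower after AF9 KD, and none after MLL1 KD without a block, where ALAS2 (-1.78) and HBG2 (-0.72) were called lower with it. The erythroid list had no common direction after AF9 KD: its median log2 fold change was 0.29, and ALAS2 (0.58), TFRC (0.58), EPOR (0.43), KLF1 (0.32) and GATA1 (0.27) had positive values that were not called. Its summed level, 9208 to 9339 CPM in controls and 6185 to 7572 CPM in AF9 KD cells, was mostly HBG1 and HBG2. In the MLL1 experiment the median was -0.31 and the sum 1277 to 1449 CPM in controls and 1085 to 1156 CPM in KD cells. The 6 megakaryocyte markers summed to 1063 to 1195 CPM in controls and 1079 to 1381 CPM in AF9 KD cells, and to 1861 to 1890 CPM and 1568 to 1678 CPM in the MLL1 experiment, where PF4, a platelet chemokine, was called higher with the block alone (1.19). The 6 lymphoid markers summed to under 10 CPM in every library. In bulk samples fewer cells of a type and less RNA per cell cannot be told apart, and the part of such a shift in the values of LGALS3BP and LGALS1 was not tested.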

How the data were processed

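Counts of polyA-selected, strand-specific RNA-seq libraries of HEL cells were used (3 control and 3 MLL1 KD, 2 control and 2 AF9 KD); CUT&Tag and PRO-seq samples were not used here. The authors deposited whole-number counts per gene symbol. According to the submitters' processing notes, the authors used fastp 0.13.1, HISAT2 2.1.0 and featureCounts 1.6.1 with hg38; the annotation and the treatment of multiply mapped reads are not given in the sources used here.

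The members, the gene lists and the rule for named genes were chosen with earlier results of these data known. The rule named all members, the targeted genes, genes of each list called in either experiment (at most 8, otherwise the 4 largest rises and falls), the 2 nearest protein-coding genes on each side of LGALS3BP and its 5 closest genes by Pearson's r on log2 CPM (prior count 2). ISG15, IRF7, LYZ, LGALSL, LGALS9B and LGALS9C were named after their values were seen. A planned search of protein motifs was not run. The value of 1 gene of the interferon list is not reported here.

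Of 28103 symbols, 25237 matched GENCODE v44 by symbol and 716 by a RefSeq synonym (92.3%). Length and GC content came from merged exons, and CPM from table totals and TMM factors. The filter kept genes whose TPM averaged 1 or more (CPM where no length was known), tested with R 4.3.3 and edgeR 4.0.16 (glmQLFit, glmQLFTest, two-sided, Benjamini-Hochberg over all genes tested) within each experiment. The alternatives were DESeq2 1.42.0, its size factors, total counts, other filters, no fold change threshold, a replicate block, GC content offsets (lowess, span 0.3) and each library left out. Replicates 2 and 3 alone, canonical transcript lengths and the summed copies of LGALS9 were added after seeing the data. The fit was tested on simulated data. Deviations of same-numbered MLL1 control and KD libraries from their group means had correlations of 0.647, 0.326 and 0.351. Control 2 went with KD 3 (0.368) and control 3 with KD 2 (0.359) at least as closely. These values set replicate 1 apart from replicates 2 and 3 and do not show that the numbers 2 and 3 pair libraries. Promoter windows are from RefSeq (GRCh38.p14); 6 of 8 members matched, and LGALS1 and LGALS12 had no entry. Counting intervals (95%) and floors (3 counts) cover counting error only.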

Additional observations from a re-analysis of the deposited data

How the results depend on the processing

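Depth limited LGALS2, LGALS3, LGALS4 and, in the AF9 experiment, LGALS12, whose counts per library were at most 26, and 2 against 2 libraries cannot give an exact permutation p under 0.333. Of the 8 members, none was called after MLL1 KD, and 1, LGALS1, was called by DESeq2 on the same genes or on all genes, with the replicate block, with the block and GC content offsets, and with replicates 2 and 3 alone. The AF9 log2 fold change of LGALS3BP, on which the set was chosen, was 2.75 to 3.52 over the alternatives, given as a description. Without a fold change threshold 2 of the 6 members tested, LGALS3BP and LGALS8, met the call rule, beside 3864 of 13351 genes. The 10 genes called after MLL1 KD were 232 and 218 by DESeq2 in these orders, 6 with total counts, 32 without a filter beyond 1 count, 682 with the replicate block, 660 with the block and GC content offsets, 694 with replicates 2 and 3 alone, and 0 to 53 with a library left out. The 1744 genes called after AF9 KD were 3864 without a fold change threshold, 1101 with GC content offsets, and 1053 to 2000 with a library left out. In the AF9 experiment the correlation of same-numbered libraries was 0.157, and with 2 libraries a group, whose deviations mirror each other, this does not settle whether the numbers pair them. The replicate block gave 1960 calls, changed no call of a member and added ISG15, IRF7 and TPSAB1 among the listed genes. The direction of LGALS8 after MLL1 KD was not stable, at -0.01 with the block, 0.00 with GC content offsets, -0.03 with both, and -0.10 to 0.23 with a library left out. With a library left out, LGALS4 after MLL1 KD ran from -0.17 (without KD replicate 2) to 0.78, and LGALS1 after AF9 KD from -0.31 to 0.12 (without control replicate 2). No other log2 fold change of a member changed sign under the alternatives run. The causes were not tested.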
